A study of Mus musculus with 6 samples.

Results

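Lef1, Tcf7, Ctnnb1, Axin2 and Tle3 are genes of the nuclear end of the Wnt pathway, and were followed here in 3 clones of immortalised B cells. They were taken by gene name and make up 5 of the 37315 genes of the abundance table, and all 5 are also among the 19402 genes of the allele table. Of the 5, 4 averaged 1 TPM or more over the libraries (TPM, an abundance per transcript length that is scaled to a common library total), Axin2 being the exception. In the allele table, 3 of the 5 (Lef1, Ctnnb1 and Tle3) had at least 20 counts in every library, the minimum at which a maternal share (the part of a gene's allelic counts that came from the maternal allele) was read. Tcf7 lay at that limit, with 24 counts in Abl.2 replicate 1 just inside it and 19 in Abl.3 replicate 2 just outside, and Axin2 had 0 counts in each library. Lef1 was chosen because its maternal share and its abundance in Abl.2 had been seen in these same libraries, so its share and its abundance in pairs with Abl.2 are described here without a test.

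The cells were the clones Abl.2, Abl.3 and Abl.4, all from F1 animals of the cross 129S1/SvImJ x CAST/EiJ, so that reads over strain differences can be assigned to an allele. By their labels Abl.2 and Abl.4 are female, whereas Abl.3 is male. The lines were controls: they grew in medium with 1% DMSO, a solvent, and live cells were taken on day 2, so no treated cells enter any comparison. Each line is 1 clone with 2 libraries, labelled as library preparation replicates; p-values therefore measure the spread between library preparations, and a difference between lines is a difference between 3 clones. The age of the animals and which strain was the mother were not used here. Allelic counts ranged from 18362319 to 26881211 per library, while TPM keep no depth, so the depth behind abundance values is unknown. Replicate libraries of a line differed by more than counting noise, with chi-square values per degree of freedom of 12.6 to 22.0 over 8480 autosomal genes. RNA came from whole cultures, in which fewer expressing cells and less RNA per cell cannot be told apart.

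The labelled cell type was checked against marker genes. All 8 B lineage markers read here, among them Cd79a, Pax5 and Ebf1, had a mean of at least 1 TPM in each line, and their summed abundance was 11484.4 to 12699.2 TPM per library, most of it from Igll1, Cd79a, Vpreb1 and Cd79b. Within the list the lines differed. In Abl.3, 5 of the 8 (Cd79a, Cd79b, Pax5, Ebf1 and Rag1) were lowest without overlap with the other lines and 2 (Igll1 and Rag2) were highest. By the same count, 1 was lowest and 2 were highest in Abl.2, and 2 were lowest and 2 highest in Abl.4. Of all 11003 genes averaging 1 TPM or more, 46.0% were lowest in Abl.3 by line mean, which does not ask for a lack of overlap. By the same looser measure 2617 were highest in Abl.3. In Abl.2, 3294 were lowest and 3963 highest, and in Abl.4, 2653 and 4423. Order without overlap was not counted over all genes, so the marker counts have no like background. Pax5, the factor that commits cells to the B lineage, was at 246.1 and 206.6 TPM in Abl.2, 56.2 and 64.0 TPM in Abl.3, and 155.9 and 165.4 TPM in Abl.4. Rag1, of the recombinase that assembles antigen receptor genes, was at 22.0 and 24.6 TPM in Abl.2, 4.39 and 5.34 TPM in Abl.3, and 9.84 and 12.9 TPM in Abl.4. Rag2 was at 43.4 and 46.5 TPM in Abl.3 against 17.0 to 26.3 TPM elsewhere, and Igll1, of the surrogate light chain, at 5027 and 4509 TPM against 3731 to 4125 TPM. Tcf7 and Lef1 are also abundant in T cells, but of 9 T cell markers Lck alone reached 1 TPM, with 1.25 to 2.34 TPM, and the list summed to 1.31 to 2.41 TPM. Cd3g, Cd4 and Cd8b1 were at 0 in all 6 libraries. Of 5 myeloid markers, Lyz2 stood at 70.8 to 192.8 TPM and was highest in Abl.2, Itgam reached 6.74 to 6.89 TPM in Abl.4, and Elane was at 0 throughout; the part of such transcripts in any result was not tested.

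In the Wnt pathway, secreted Wnt ligands bind Frizzled and LRP receptors and thereby stop a complex of Axin, APC, casein kinase 1 and GSK3 from marking β-catenin, the product of Ctnnb1, for destruction. β-catenin then enters the nucleus and binds the TCF/LEF family of DNA-binding factors, of which Lef1 and Tcf7 are lymphoid members; without it, these factors hold Groucho/TLE corepressors such as Tle3. Axin2 is a target of the pathway that feeds back on it as a scaffold of the destruction complex. Lef1 was named for its expression in lymphoid cells, and in the B lineage it is characteristic of early progenitor stages.

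Lef1 and the nearest gene downstream with enough allelic counts, Hadh, which encodes a mitochondrial enzyme of fatty acid oxidation, carried opposite allelic shares in Abl.2, and the bases before their start sites are shown for that reason. The sequences are from RefSeq for the reference genome (build GRCm38.p6), 5′ to 3′ on each gene's own strand, and are not the 129S1/SvImJ or CAST/EiJ alleles. In the first pair, CG dinucleotides, the sites at which DNA methylation is found in mammals, are in capitals. The last capital C of the Hadh stretch belongs to a CG whose G is the next base, beyond the stretch, and is not counted. The series title concerns DNA methylation, which was not measured in the libraries analysed here.
Lef1 upstream of its first start site, chr3:131110047-131110296, plus strand: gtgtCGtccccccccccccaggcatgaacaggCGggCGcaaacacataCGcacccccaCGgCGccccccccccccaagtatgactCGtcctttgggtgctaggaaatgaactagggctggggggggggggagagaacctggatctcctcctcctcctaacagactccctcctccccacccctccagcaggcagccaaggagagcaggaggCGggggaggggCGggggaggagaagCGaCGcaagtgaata
Hadh upstream of its start site, chr3:131272102-131272351, minus strand: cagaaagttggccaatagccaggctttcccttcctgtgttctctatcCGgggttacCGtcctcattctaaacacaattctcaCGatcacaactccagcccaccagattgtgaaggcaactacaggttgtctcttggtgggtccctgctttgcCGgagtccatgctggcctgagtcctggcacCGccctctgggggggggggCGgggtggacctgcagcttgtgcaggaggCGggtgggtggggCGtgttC
The Lef1 stretch held 11 CG in 250 bases and 35.6% of all mouse promoter windows in the table held as many or more, while the Hadh stretch held 8, with 43.0%. The median over all windows was 6. The RefSeq table lists 4 start sites for Lef1. The last of them lies inside the gene at position 131156294 of chromosome 3, and the stretch before it is shown because it held the TCF/LEF core motif CTTTGA, written in capitals where its reverse complement TCAAAG occurs.
Lef1 upstream of its last start site, chr3:131156044-131156293, plus strand: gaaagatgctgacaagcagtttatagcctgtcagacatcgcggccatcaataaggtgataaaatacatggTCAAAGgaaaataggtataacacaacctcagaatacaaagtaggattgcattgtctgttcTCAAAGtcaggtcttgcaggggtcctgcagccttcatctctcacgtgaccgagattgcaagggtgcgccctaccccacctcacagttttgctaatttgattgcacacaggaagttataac
CTTTGA was searched on both strands in windows of 300 bases, 250 before and 50 after the start. It was present in 16.0% of 32851 windows. Of 10 windows of the 5 genes, 1 held it, this Lef1 window with 2 matches on the minus strand. A match describes these letters in the reference and does not show binding.

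Ctnnb1 (ENSMUSG00000006932) encodes β-catenin, the coactivator on which the pathway turns. It lies on the plus strand of chromosome 9 from 120929216 to 120960507. It stood at 187.9 and 192.9 TPM in the replicates of Abl.2, 149.1 and 144.9 TPM in Abl.3, and 249.1 and 222.0 TPM in Abl.4. The 3 lines did not overlap, with Abl.4 highest and Abl.3 lowest. On the log2(TPM + 1) scale, Abl.2 exceeded Abl.3 by 0.37 (SE 0.081, adjusted p = 0.0126, limma with Benjamini-Hochberg adjustment over 11003 genes), where 39.8% of all genes tested passed the same threshold of 0.05. Ctnnb1 differed between Abl.3 and Abl.4 by −0.67 (limma adjusted p = 0.00141), with 38.1% of genes called. Between Abl.2 and Abl.4 it differed by −0.30 (limma adjusted p = 0.0300), with 33.5% called. The differences with Abl.2 were less secure than that between Abl.3 and Abl.4 when a library was left out. On summed allelic counts, the difference between Abl.2 and Abl.4 was −0.48 (edgeR adjusted p = 0.00232). That between Abl.3 and Abl.4 was −0.49 on the same counts (edgeR adjusted p = 0.00232). Leaving out any 1 of the 4 libraries of Abl.2 and Abl.3 kept their difference at 0.35 to 0.39 and gave limma adjusted p of 0.0555 to 0.0801, and edgeR on summed allelic counts gave 0.01. The difference between Abl.2 and Abl.4 became −0.32 to −0.22 (limma adjusted p 0.0592 to 0.149) without either library of Abl.2, either of Abl.3 or replicate 1 of Abl.4.

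Both alleles of Ctnnb1 were read about equally in every line. Its maternal share was 0.5 and 0.492 in Abl.2, 0.481 and 0.465 in Abl.3, and 0.488 and 0.491 in Abl.4, from 2739 to 4557 counts per library. All 6 values lay at or just below equal output. No line passed the test of allelic imbalance and no pair of lines that of an allelic difference (edgeR quasi-likelihood test, Benjamini-Hochberg adjustment over 8702 genes). When equal shares were replaced by each library's own allele totals, Abl.2 had a log2 allele ratio of −0.19 (edgeR adjusted p = 0.0256). Those totals run over all autosomes and include chromosome 4, which Abl.2 reads almost wholly from the maternal allele. Against them a gene with equal counts has a negative ratio in Abl.2. Against equal shares the ratio was −0.03 (edgeR adjusted p = 0.774). Ctnnb1 overlaps 3 annotated genes, 1 of them, Ulk4 on the other strand, also in the allele table; whether counting used strand is not given in the sources used here, so reads in the overlap cannot be told apart.

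**Figure D1:**
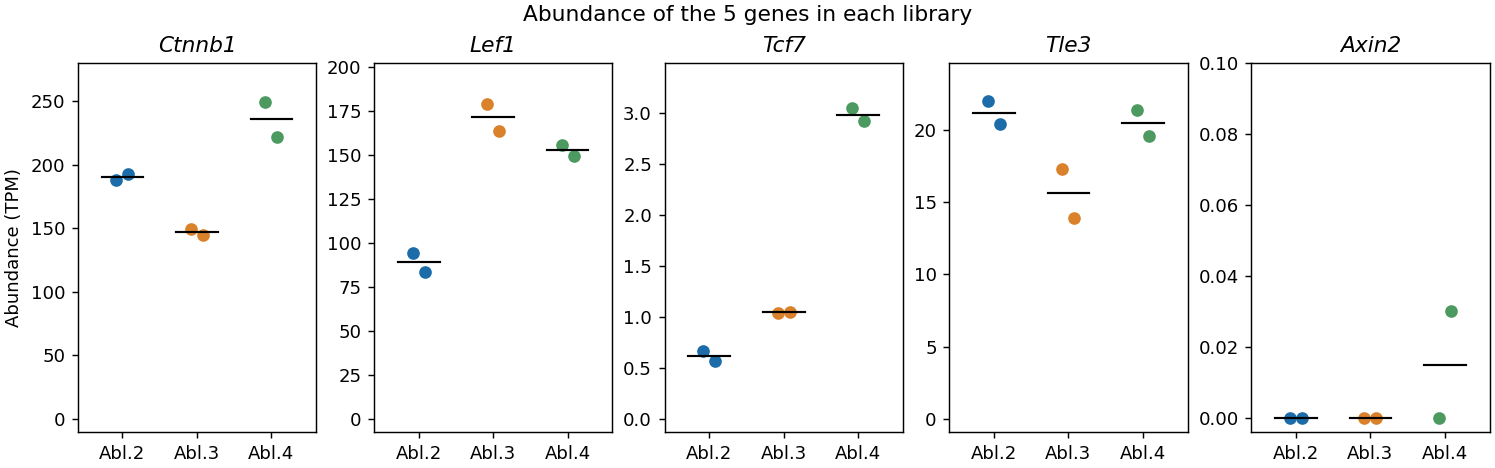
Abundance in TPM (vertical axes, one scale per gene) of Ctnnb1, Lef1, Tcf7, Tle3 and Axin2 in the 2 libraries of each line (points), with the line mean (bar). Ctnnb1 and Lef1 lie between 83.9 and 249.1 TPM, Lef1 is lowest in Abl.2, Tcf7 is highest in Abl.4, and Axin2 is at 0 in 5 of 6 libraries.

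Lef1 (ENSMUSG00000027985) is the DNA-binding partner of β-catenin that these cells express most. The gene spans 113.9 kb of the plus strand of chromosome 3, with start 131110471 and end 131224356. Its abundance was 94.3 and 83.9 TPM in Abl.2, 179.2 and 163.8 TPM in Abl.3, and 155.7 and 149.8 TPM in Abl.4. Both Abl.2 libraries lay below the 4 others, and the ranges of the 3 lines did not overlap. The mean in Abl.2 was 51.9% of that in Abl.3 and 58.3% of that in Abl.4; on the log2(TPM + 1) scale the differences were −0.94 and −0.77. Between Abl.3 and Abl.4, the pair that had no part in choosing the gene, the difference of 0.17 (SE 0.090) had a limma adjusted p of 0.190. That comparison depended on the measure: edgeR on summed allelic counts gave 0.39 (adjusted p = 0.00945, against limma adjusted p of 0.196 to 0.551 when each library was left out). Lef1 was the more abundant of Lef1 and Ctnnb1 in Abl.3 and the less abundant in the other lines.

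The maternal share of Lef1 was 0.0129 and 0.0159 in Abl.2, 0.480 and 0.476 in Abl.3, and 0.464 and 0.472 in Abl.4. The 95% Wilson intervals, which cover counting error only, were 0.0108 to 0.0154 and 0.0136 to 0.0186 in Abl.2. In the other lines they ran from 0.455 to 0.488. Abl.2 thus read Lef1 almost wholly from the paternal allele, while both alleles contributed in Abl.3 and Abl.4. In the authors' deposited table the maternal fraction was 0.01 in Abl.2 (limits 0.01 to 0.02), 0.48 in Abl.3 (0.45 to 0.5) and 0.47 in Abl.4 (0.43 to 0.5). These shares rest on 9304 to 15649 counts per library. Lef1 overlaps an antisense gene (Gm43352) and Gm42449, neither in the allele table. The median share of 382 genes of chromosome 3 was 0.505 in Abl.2, beside 0.492 in Abl.3 and 0.496 in Abl.4, so the chromosome as a whole did not share the value of Lef1.

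The residual maternal signal in Abl.2 was 120 of 9304 and 153 of 9599 counts, 1.29% and 1.59%. For comparison, chromosome 4 of Abl.2 is read almost wholly from the maternal allele, and the median gene there (554 genes) had 0.195% and 0.165% of counts from the paternal allele in the same libraries. The minor share was below that of Lef1 in 521 and 536 of those genes. What the residual Lef1 counts come from was not tested.

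Multiplying TPM by the allelic share sets the output of each allele side by side. The paternal allele of Lef1 gave 93 and 82.5 TPM in Abl.2, 93.3 and 85.8 TPM in Abl.3, and 83.4 and 79.1 TPM in Abl.4. The range in Abl.2 overlapped that of each other line, while Abl.3 lay above Abl.4 without overlap. The mean in Abl.2 was 0.981 of that in Abl.3 and 1.08 of that in Abl.4. The maternal allele gave 1.22 and 1.34 TPM in Abl.2 against 86.0 and 78.0 TPM in Abl.3 and 72.2 and 70.6 TPM in Abl.4. The maternal output in Abl.2 was 64.3-fold below Abl.3 and 56.0-fold below Abl.4. On this scale the lower abundance of Lef1 in Abl.2 lay in the maternal output, with paternal output in the range of the other lines.

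**Figure D2:**
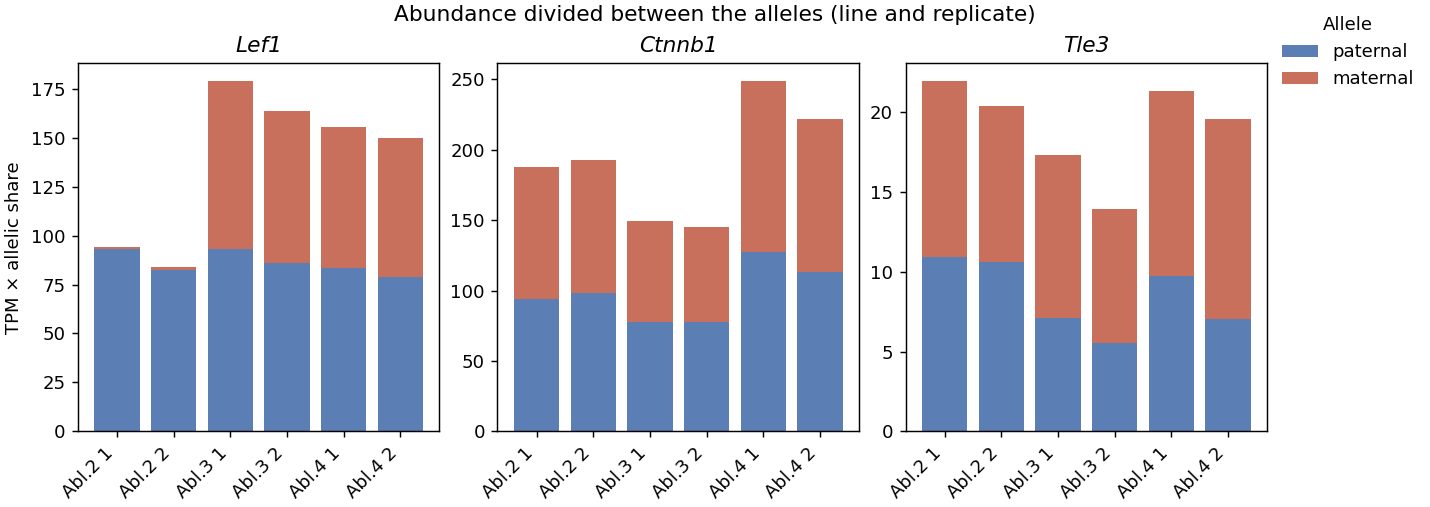
TPM multiplied by the allelic share for Lef1, Ctnnb1 and Tle3 in each library (line and replicate), stacked as paternal (blue) and maternal (red) output from 0. For Lef1 the paternal bars span 79.1 to 93.3 TPM in all 6 libraries, and the maternal bars are 1.22 and 1.34 TPM in Abl.2 against 70.6 to 86.0 TPM elsewhere.

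Tcf7 (ENSMUSG00000000782), which encodes TCF-1, was the other lymphoid TCF/LEF factor measured, from the minus strand of chromosome 11 between 52252371 and 52283014. It was low, at 0.67 and 0.57 TPM in Abl.2, 1.04 and 1.05 TPM in Abl.3, and 3.05 and 2.92 TPM in Abl.4. The lines did not overlap, and Abl.4 was highest. Tcf7 was lower than in Abl.4 both in Abl.2, by a log2(TPM + 1) difference of −1.30 (limma adjusted p = 0.00179), and in Abl.3, by −0.96 (limma adjusted p = 0.00596). Tcf7 reached the filter of 1 TPM through Abl.4, the other libraries averaging 0.833 TPM; without a filter both calls held (limma adjusted p = 0.00221 and 0.00532). Between Abl.2 and Abl.3 the difference of −0.34 (SE 0.17) had a limma adjusted p of 0.155. Its maternal share was 0.5 and 0.4 in Abl.2, 0.2 in Abl.3 replicate 1, and 0.6 and 0.488 in Abl.4. With 24 to 82 counts behind them these shares had wide intervals, 0.234 to 0.686 in Abl.2. With the minimum lowered to 10 counts, no line and no pair of lines passed for Tcf7, and the log2 allele ratio in Abl.3 was −1.41 (edgeR adjusted p = 0.0867).

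Over the 4 TCF/LEF factors (Lef1, Tcf7, Tcf7l1 and Tcf7l2), Lef1 made up most of the summed TPM in every library. Its part was 81.7% and 84.1% in Abl.2, 91.7% and 92.1% in Abl.3, and 88.0% and 86.8% in Abl.4. Abl.2 had the lowest part and did not overlap the other lines, though Lef1 stayed the leading member there.

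Tle3 (ENSMUSG00000032280), a Groucho/TLE corepressor, lies on the plus strand of chromosome 9 from 61372366 to 61418497, with no overlapping gene. It stood at 22.0 and 20.4 TPM in Abl.2, 17.3 and 13.9 TPM in Abl.3, and 21.4 and 19.6 TPM in Abl.4. Abl.3 was lowest, without overlap, while Abl.2 and Abl.4 overlapped. Abl.2 exceeded Abl.3 by a log2(TPM + 1) difference of 0.42 (SE 0.13, limma adjusted p = 0.0412). That call was lost under quantile normalisation (0.24, adjusted p = 0.210), on summed allelic counts (0.20, edgeR adjusted p = 0.268), without a filter on low values (limma adjusted p = 0.0788), and when any library except replicate 1 of Abl.3 was left out (0.28 to 0.47, limma adjusted p 0.0578 to 0.195). Between Abl.2 and Abl.4 the difference was 0.05 (limma adjusted p = 0.800), and between Abl.3 and Abl.4 −0.37 (limma adjusted p = 0.0615), which became 0.0235 in a fit blocked by replicate number. It was −0.11 under quantile normalisation (limma adjusted p = 0.554) and −0.19 on summed allelic counts (edgeR adjusted p = 0.307).

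In the allelic counts, Tle3 leaned to the maternal allele in Abl.3 and Abl.4 and not in Abl.2. Its maternal share was 0.504 and 0.479 in Abl.2, 0.589 and 0.604 in Abl.3, and 0.546 and 0.639 in Abl.4, from 742 to 1425 counts. Abl.2 did not overlap the other lines, and the replicates of Abl.4 differed more than those of Abl.3. The maternal fraction in the authors' deposited table was 0.49 in Abl.2 (limits 0.41 to 0.57), 0.6 in Abl.3 (0.49 to 0.7) and 0.59 in Abl.4 (0.48 to 0.7). These limits include equal output in every line, and those of Abl.2 overlap those of the other lines. The log2 allele ratio was 0.56 in Abl.3 (edgeR adjusted p = 0.00827), where 45.1% of genes tested were imbalanced, and 0.54 in Abl.4 (edgeR adjusted p = 0.00962), where 39.9% were. In Abl.2 it was −0.05 (edgeR adjusted p = 0.783), where 49.1% were. The difference between Abl.2 and Abl.3 was −0.61 (SE 0.19, edgeR adjusted p = 0.0382), with 28.4% of genes called. Between Abl.2 and Abl.4 it was −0.60 (edgeR adjusted p = 0.0508), with 22.3% called. With a library left out, its line keeps 1 library. Without either replicate of Abl.2 or of Abl.3 the first difference stayed at −0.69 to −0.54 and did not pass. Its SE was then 0.25 to 0.26, against 0.19 with all libraries. The second difference ranged from −0.88, without replicate 1 of Abl.4, where it passed, to −0.32. The imbalance in Abl.3 was 0.61 and 0.52 without its replicate 1 or 2 (edgeR adjusted p 0.0680 and 0.0888), and that in Abl.4 was 0.26 without its replicate 2 (edgeR adjusted p = 0.223). By allele, the paternal output of Tle3 was 10.9 and 10.6 TPM in Abl.2, 7.11 and 5.52 TPM in Abl.3, and 9.70 and 7.06 TPM in Abl.4.

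Among the 6 Groucho/TLE genes, Tle3 held 10.0% and 9.45% of the summed TPM in Abl.2, 22.0% and 21.9% in Abl.3, and 8.46% and 7.77% in Abl.4. Its larger part in Abl.3 went with a lower family sum, 78.7 and 63.7 TPM there against 216.0 to 252.2 TPM in the other lines. Of the family, Aes and Tle6 had the largest differences between Abl.3 and the other lines.

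Axin2 (ENSMUSG00000000142), the feedback target, was listed at 0 TPM in 5 libraries and at 0.03 TPM in replicate 2 of Abl.4. The gene lies on the plus strand of chromosome 11 from 108920349 to 108950783. It had 0 allelic counts in all 6 libraries, so no share and no test could be given.

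Genes around Lef1 were read to see how far its allelic share extended. Within 1 Mb of its start, 4 other genes had at least 20 counts in every library. Hadh (chromosome 3, 131233419 to 131272101, minus strand), whose nearer end lies 9.06 kb beyond the end of Lef1, had a maternal share of 0.952 and 0.963 in Abl.2, 0.562 and 0.550 in Abl.3, and 0.527 and 0.501 in Abl.4. Lef1 and Hadh were thus read from opposite alleles in Abl.2 and from both in the other lines. The abundance of Hadh was 51.7 ± 0.332 TPM (SD, n = 2) in Abl.2, with 58.9 ± 3.71 in Abl.3 and 63.7 ± 5.61 in Abl.4. Ostc, Rpl34 and Papss1, the other neighbours, had mean shares of 0.486, 0.568 and 0.555 in Abl.2. These were chosen by position, and no test was made.

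A window of 2 Mb, added after the data had been seen, held 14 genes with enough counts besides Lef1. In Abl.2, 4 of them (Hadh, Enpep, Pla2g12a and Casp6) had a mean share of at most 0.1 or at least 0.9, as did 3 in Abl.3 (Enpep, Casp6 and Egf) and 1 in Abl.4 (Enpep). Over the 7495 genes on autosomes other than chromosomes 4 and 10, 5.62% had such a share in Abl.2, 4.34% did in Abl.3, and 3.84% did in Abl.4. Enpep, encoding an aminopeptidase of the B lineage surface, was paternal in every line (0.000853 in Abl.2, 0.00177 in Abl.3, 0.00909 in Abl.4). Pla2g12a averaged 0.00581 in Abl.2 beside 0.560 in Abl.3 and 0.407 in Abl.4. Casp6, encoding an apoptotic protease, had 0.00765 in Abl.2, 0.952 in Abl.3 and 0.594 in Abl.4, so that it was read from opposite alleles in Abl.2 and Abl.3. Egf, encoding epidermal growth factor, averaged 0.468 in Abl.2, 0.974 in Abl.3 and 0.343 in Abl.4, from only 26 to 100 counts per library. Between these genes and Lef1, Sec24b, Ostc and Rpl34 were read from both alleles in all 3 lines. Around the other members, the 1 Mb windows of Tcf7, Ctnnb1 and Tle3 held 14, 10 and 5 genes with enough counts and none at those shares in Abl.2; near Axin2, Wipi1 had a share of 1 in both Abl.2 libraries. Within 2 Mb, such shares in Abl.2 were found in 2 of 27 genes around Tcf7, 1 of 22 around Ctnnb1, 1 of 13 around Axin2 and 0 of 12 around Tle3; these include Rufy1 near Tcf7, with a mean share of 0.00512, and Ano10 near Ctnnb1, above 0.999.

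**Figure D3:**
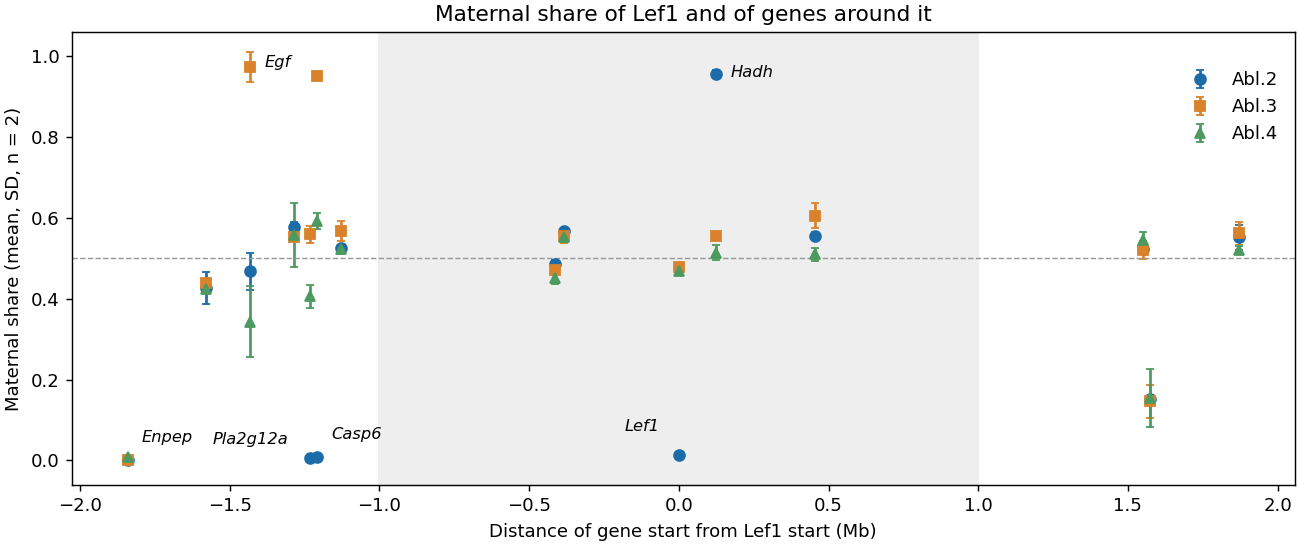
Maternal share (mean of 2 libraries, bars SD) of Lef1 and genes with enough counts, against the distance of their start from that of Lef1 in Mb; circles are Abl.2, squares Abl.3 and triangles Abl.4, and the grey band marks 1 Mb. In Abl.2, Lef1, Enpep, Pla2g12a and Casp6 lie near 0, Tbck at 0.152 and Hadh at 0.957, with the other genes nearer equal output. The squares near the top are Egf, at 0.974, and the unnamed Casp6, at 0.952, both in Abl.3.

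Lef1 was not alone in its pattern. Outside chromosomes 4 and 10, whose median shares in Abl.2 were 0.998 and 0.337, 90 of 7495 genes had a mean share of at most 0.1 or at least 0.9 in Abl.2 and of 0.3 to 0.7 in both other lines. In Abl.2, 34 of the 90 were paternal and 56 maternal. Among the 90, Lef1 had the highest mean TPM and the second highest total of allelic counts. Of 89 averaging 1 TPM or more, 76 were lower in Abl.2 than in both other lines, beside 29.9% of all genes lowest in Abl.2 by line mean. Their median log2(TPM + 1) differences were −0.75 from Abl.3 and −0.97 from Abl.4, beside medians over all genes of 0.10 and −0.03. The 90 genes were picked by their shares in the same libraries, so the figures are a description. The 5 autosomal genes closest to Lef1 in maternal share over the 6 libraries, by the mean absolute difference among 8479 genes, were Tet2, Pag1, 2700062C07Rik, Wdfy3 and Unc13d, at 0.0213 to 0.0252. Tet2, encoding an enzyme that oxidises methylated cytosine in DNA, averaged a share of 0.00507 in Abl.2 beside 0.432 in Abl.3 and 0.465 in Abl.4. Tet2 and Pag1 also lie on chromosome 3. Tet2 was not lowest in Abl.2, with 3.79 ± 0.205 TPM (SD, n = 2) there, beside 3.02 ± 0.467 in Abl.3 and 8.22 ± 0.587 in Abl.4. In abundance, the 5 genes closest to Lef1 were Magohb, Vegfa, Tmem9, Gypc and Ldha, with mean absolute differences of 0.0462 to 0.0607 in centred log2(TPM + 1). Shares were read for 3 of these 5. Gypc, encoding a membrane glycoprotein of red cells, was maternal in Abl.2 with a mean share of 0.938, beside 0.495 in Abl.3 and 0.567 in Abl.4, and is 1 of the 90 genes above. Vegfa, a growth factor, had mean shares of 0.666, 0.688 and 0.643 in Abl.2, Abl.3 and Abl.4, and Ldha, encoding lactate dehydrogenase, had 0.470, 0.479 and 0.488.

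The rest of the pathway was read from 103 genes in 9 roles, a list drawn up with earlier results of these libraries known. Of these, 46 had a mean of at least 1 TPM and 31 were at 0 in every library. All 3 Dishevelled genes, 12 of 13 genes of the destruction complex and its regulators and 8 of 10 nuclear cofactors reached 1 TPM, against 2 of 23 ligands and 5 of 18 receptors. Of the 46, 25 differed between Abl.2 and Abl.3 (19 higher and 6 lower in Abl.2), which is 54.3% beside 39.8% of all genes (25.9% higher and 14.0% lower). Between Abl.2 and Abl.4, 13 differed (4 higher and 9 lower in Abl.2), 28.3% beside 33.5% (15.0% and 18.4%). Between Abl.3 and Abl.4, 27 differed (2 higher and 25 lower in Abl.3), 58.7% beside 38.1% (11.3% and 26.8%). Median differences of the list were 0.30, −0.04 and −0.45, beside 0.10, −0.03 and −0.15 over all genes. By line mean, 29 of the 46 were lowest in Abl.3, 9 in Abl.2 and 8 in Abl.4, beside 46.0% of all genes lowest in Abl.3; the comparisons with Abl.3 share its libraries. Called the other way were Cd44, Nkd2, Ctnnbip1, Ryk, Wnt6 and Fzd9, lower in Abl.2 than in Abl.3, and Nkd2 and Ctbp1, higher in Abl.3 than in Abl.4. Ctbp1 (0.31, limma adjusted p = 0.0411) lost its call without any 1 of the 6 libraries (0.21 to 0.40, limma adjusted p 0.0502 to 0.198) or without a filter (limma adjusted p = 0.0722). Wnt6 lost the call between Abl.2 and Abl.3 without any 1 of their 4 libraries (limma adjusted p 0.0538 to 0.102). Cd44 lost it without replicate 2 of Abl.2 or replicate 1 of Abl.3 (limma adjusted p = 0.0547 and 0.0527). Of the 46, 3 (Wnt6, Ccnd1 and Cd44) reached 1 TPM through Abl.4 alone. Of the B lineage markers, 5 of 8 were also lowest and 2 highest in Abl.3 without overlap. Of all genes, 46.0% were lowest there by line mean, a looser measure. The part of these markers in the list's values and in the lower TLE family sum of Abl.3 was not tested. After quantile normalisation the list's medians were 0.15, 0.00082 and −0.27, beside −0.0028, 0.03 and 0.03 over all genes, with 24, 13 and 21 calls in the list. Without replicate 2 of Abl.4 the last comparison had 16 calls. On summed allelic counts (edgeR) the comparison of Abl.2 with Abl.4 had 20.

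Of the ligands, Wnt10a was by far the more abundant, at 155.2 and 118.7 TPM in Abl.2, 72.4 and 62.7 TPM in Abl.3, and 97.3 and 75.7 TPM in Abl.4. It was higher in Abl.2 than in Abl.3 by 1.00 on the log2(TPM + 1) scale (limma adjusted p = 0.00503). It was read from the paternal allele in all lines, with mean shares of 0.0123 in Abl.2 beside 0.00502 in Abl.3 and 0.0187 in Abl.4. Wnt6 stood at 0.32 and 0.35 TPM in Abl.2, 1.21 and 1.53 TPM in Abl.3, and 11.1 and 7.91 TPM in Abl.4. Both other lines lay below Abl.4 for Wnt6, with differences of −2.96 for Abl.2 and −2.13 for Abl.3 (limma adjusted p = 0.000122 and 0.000538). Wnt6 likewise reached 1 TPM through Abl.4, with a mean of 0.853 TPM outside it, and without a filter both calls held (limma adjusted p = 0.00123 and 0.00328). Wls, the carrier that takes ligands to the cell surface, was at 133.2 to 202.1 TPM and more maternal in Abl.2 (mean share 0.992) than in Abl.3 (0.884) or Abl.4 (0.860), the log2 allele ratio differing by 4.09 and 4.40 (edgeR adjusted p = 1.65e-07 and 7.45e-08).

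Among receptors and inhibitors, Ryk, Dkk3 and Kremen1 were highest in Abl.4. Ryk, a Wnt coreceptor related to receptor tyrosine kinases, was at 0.02 and 0.12 TPM in Abl.2, 2.74 and 1.70 TPM in Abl.3, and 34.2 and 34.4 TPM in Abl.4. All 3 pairs passed, with −5.05 for Abl.2 minus Abl.4 on the log2(TPM + 1) scale (limma adjusted p = 1.39e-05). Lrp6, the LRP coreceptor, was at 4.36 to 10.2 TPM, and Abl.3 lay below the other lines without overlap. The differences were 0.64 for Abl.2 minus Abl.3 and −0.65 for Abl.3 minus Abl.4 (limma adjusted p = 0.0476 and 0.0474). Neither passed without a filter on low values (limma adjusted p = 0.116 and 0.109). The first call was lost without any 1 library of Abl.2 or Abl.3 (0.49 to 0.80, limma adjusted p 0.0800 to 0.214). The second was lost without any library except replicate 1 of Abl.4 (−0.80 to −0.40, limma adjusted p 0.0794 to 0.213), and both under quantile normalisation. Lgr5, a receptor that strengthens Wnt signals, was at 0 and 0.06 TPM in Abl.3 and at 4.06 to 7.22 TPM in the other lines. Dkk3, of the Dickkopf family of secreted inhibitors, was at 22.3 and 23.4 TPM in Abl.4 against 3.94 to 7.07 TPM elsewhere. Kremen1, a Dickkopf receptor, was at 17.5 and 18.0 TPM in Abl.4 and 9.51 to 12.0 TPM elsewhere, its difference between Abl.3 and Abl.4 being −0.77 (limma adjusted p = 0.00269).

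The Frizzled receptor Fzd9, singled out after its values had been seen, had the pattern of Lef1 in its mean values, at a lower level and from few counts. Its abundance was 2.31 and 1.81 TPM in Abl.2, 8.75 and 6.64 TPM in Abl.3, and 6.80 and 4.71 TPM in Abl.4. Its maternal share was 0.0364 and 0 in Abl.2, 0.560 and 0.536 in Abl.3, and 0.432 and 0.458 in Abl.4. In Abl.2, 2 of 55 and 0 of 61 counts were maternal. The authors' limits on its maternal fraction were 0 to 0.31 in Abl.2, 0.31 to 0.77 in Abl.3 and 0.13 to 0.78 in Abl.4. The limits of Abl.2 thus overlap those of Abl.4 and meet those of Abl.3. Fzd9 lies on chromosome 5 (135248938 to 135251230, minus strand), apart from Lef1.

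Most transducers and destruction complex genes were expressed in all 3 lines. Csnk1d and Csnk1a1, kinases of the casein kinase 1 family, were at 120.9 to 172.3 and 134.2 to 150.3 TPM. Csnk1d was higher in Abl.2 than in Abl.3 by 0.41 on the log2(TPM + 1) scale (limma adjusted p = 0.00638; 0.37 and 0.0520 without replicate 1 of Abl.2). Csnk1a1 passed in no pair in abundance, while its maternal share of 0.538 in Abl.2 exceeded the 0.426 in Abl.3 and 0.434 in Abl.4 (edgeR adjusted p = 4.96e-05 and 0.000112). Of 12 genes in this role, 6 were higher in Abl.2 than in Abl.3 (Apc, Fbxw11, Gsk3b, Tnks2, Csnk1d and Tnks) and none lower, where 25.9% of all genes were higher. In the comparison of Abl.3 with Abl.4, which uses the same Abl.3 libraries, 6 of the 12 were lower in Abl.3, where 26.8% of all genes were lower; of these Csnk1d (−0.26, limma adjusted p = 0.0343) lost the call without any 1 of the 6 libraries (−0.31 to −0.21, limma adjusted p 0.0613 to 0.164). Dvl1, a Dishevelled transducer on chromosome 4, had a maternal share of 0.999 in both Abl.2 libraries, beside the chromosome's median of 0.998, and of 0.538 in Abl.3 and 0.524 in Abl.4. Its abundance was 47.5 and 42.6 TPM in Abl.2, 34.7 and 26.3 TPM in Abl.3, and 49.7 and 41.1 TPM in Abl.4. Dvl2 was at 32.5 to 40.5 TPM with shares of 0.480 to 0.548.

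In the nucleus, Aes (a short Groucho family member) was at 109.0 and 104.0 TPM in Abl.2, 33.3 and 28.9 TPM in Abl.3, and 142.5 and 147.3 TPM in Abl.4. Tle6 was at 57.9 and 62.7 TPM in Abl.2, 8.35 and 2.86 TPM in Abl.3, and 60.4 and 54.4 TPM in Abl.4. Both were lower in Abl.3 than in Abl.2, by 1.75 and 3.35 on the log2(TPM + 1) scale (limma adjusted p = 4.16e-05 and 0.000868). Aes was paternal in all lines, with mean shares of 0.0243, 0.00780 and 0.00191 in Abl.2, Abl.3 and Abl.4. Tle6 averaged 0.224 in Abl.2 and 0.289 in Abl.4 but 0.765 in Abl.3. Both lie on chromosome 10, where the median share in Abl.2 was 0.337. The corepressor Ctbp1 was at 240.8 to 327.8 TPM. Jup, encoding γ-catenin (plakoglobin), a relative of β-catenin, was at 11.3 and 10.4 TPM in Abl.2, 5.13 and 4.17 TPM in Abl.3, and 14.5 and 13.8 TPM in Abl.4. In contrast to the balanced Ctnnb1, it was paternal in all lines, at mean shares of 0.00734, 0 and 0.0642. Tbl1x on chromosome X was paternal in both female lines (shares of at most 0.00237) and maternal in the male line (at least 0.999). The only X of a male is its mother's, so the share in the male line was fixed by sex. Pygo2, at 48.2 to 56.1 TPM, passed in no pair.

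Targets of the pathway differed in which line was highest. Myc was at 445.9 to 602.0 TPM and passed in no pair. Tnfrsf19 was higher in Abl.2 (52.3 and 50.7 TPM) than in Abl.3 (31.0 and 28.7 TPM) and Abl.4 (30.2 and 26.1 TPM), by 0.77 and 0.85 on the log2(TPM + 1) scale (limma adjusted p = 0.00197 and 0.00141). Cd44 was at 19.3 and 21.5 TPM in Abl.4 and 0.11 to 1.01 TPM elsewhere. Nkd2, a feedback inhibitor, was highest in Abl.3, at 7.40 and 7.81 TPM against 1.5 to 2.85 TPM in the other lines, and was maternal in every library (shares of at least 0.992).

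**Figure D4:**
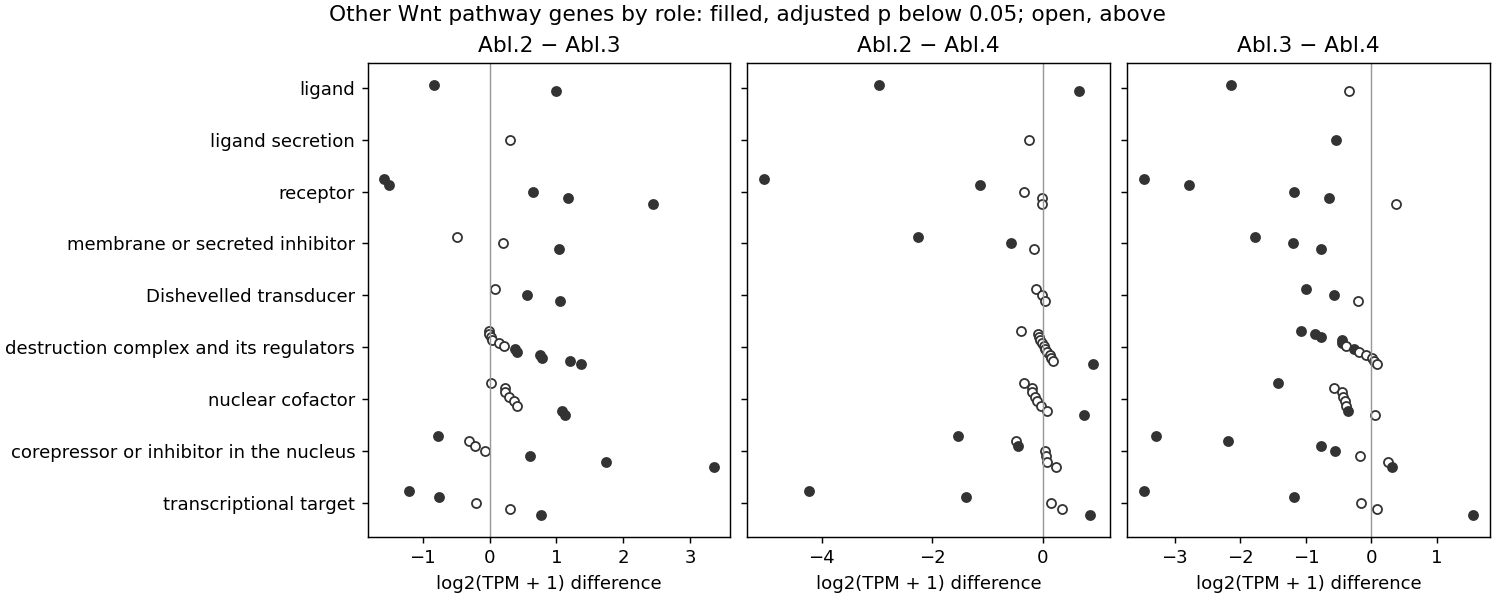
Difference in log2(TPM + 1) between lines for the 46 other Wnt pathway genes averaging 1 TPM or more, by role; filled points passed limma at an adjusted p of 0.05 and open points did not. Against Abl.3, most called genes are higher in Abl.2 (19 of 25) and in Abl.4 (25 of 27). Of all genes tested, 25.9% were higher and 14.0% lower in Abl.2 than in Abl.3. Between Abl.3 and Abl.4, 11.3% were higher and 26.8% lower in Abl.3.

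At the level of alleles, 33 of the 103 genes had at least 20 counts in every library. Between Abl.2 and Abl.3, 13 of the 33 differed in allele ratio (39.4% beside 28.4% of all genes tested), 9 with a higher and 4 with a lower maternal share in Abl.2 (15.4% and 13.0% of all genes). Between Abl.2 and Abl.4, 7 differed (21.2% beside 22.3%), 4 higher and 3 lower in Abl.2 (12.7% and 9.61%). Between Abl.3 and Abl.4, 10 differed (30.3% beside 16.5%), 4 higher and 6 lower in Abl.3 (8.53% and 7.93%). Within lines, 17, 18 and 16 of the 33 were imbalanced in Abl.2, Abl.3 and Abl.4, beside 49.1%, 45.1% and 39.9% of all genes. The maternal allele was the higher in 8 of the 17 in Abl.2 (24.7% of all genes, 24.4% for the paternal allele). It was so in 10 of the 18 in Abl.3 (22.5% and 22.6%) and 6 of the 16 in Abl.4 (19.2% and 20.7%). Strong bias, a mean share of at most 0.1 or at least 0.9 in at least 1 line, was found in 10 of the 33, Dvl1 and Aes on chromosomes 4 and 10 and 8 outside them. The 8 (Wnt10a, Wls, Tbl1x, Nkd2, Jup, Dkk3, Amer1 and Fzd9) were 26.7% of the 30 list genes outside those chromosomes, beside 10.8% of all genes there with as many counts. Tbl1x and Amer1 lie on chromosome X, where the share of the male line Abl.3 was fixed by sex. The 10.8% includes that chromosome as well, and over autosomes alone it was 8.14% of 7495 genes. The list's own share over autosomes alone was not worked out. Both X genes are also among those above that differed in allele ratio between Abl.3 and each other line. Wnt10a and Jup were paternal and Nkd2 maternal in all 3 lines, whereas Lef1 and Fzd9 were paternal in Abl.2 and read from both alleles in Abl.3 and Abl.4.

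**Figure D5:**
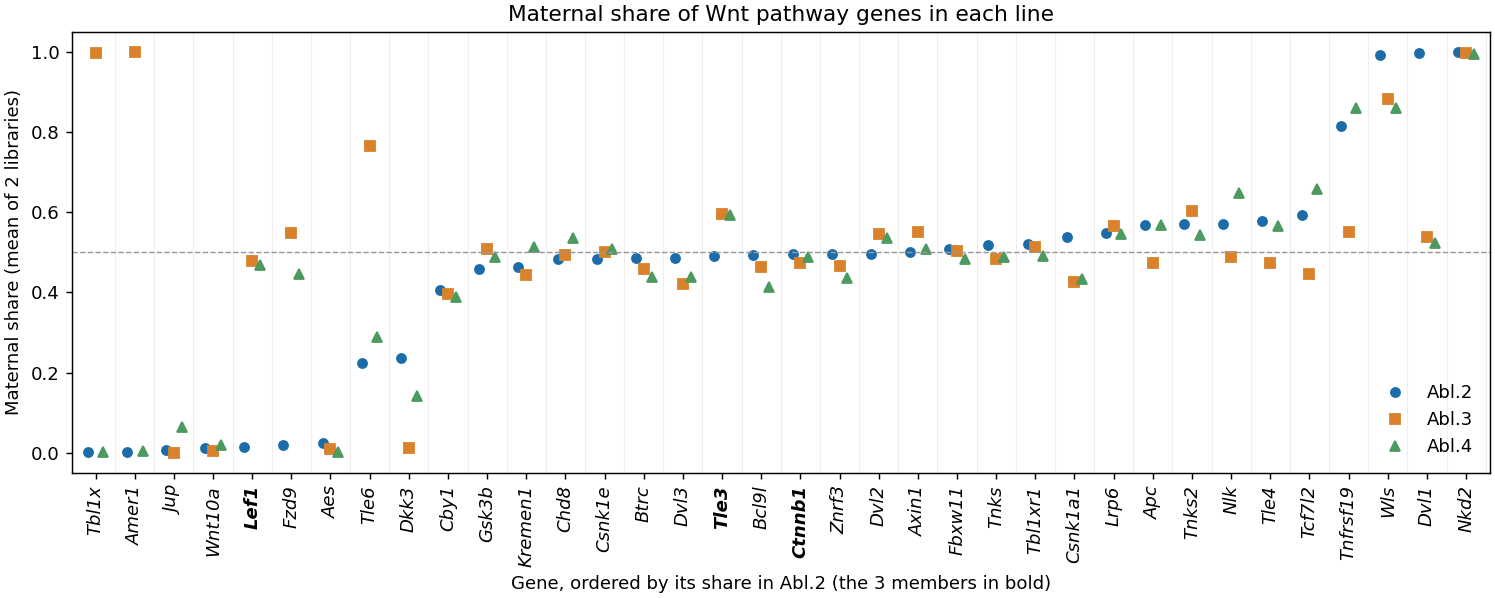
Mean maternal share in Abl.2 (circles), Abl.3 (squares) and Abl.4 (triangles) of 36 Wnt pathway genes with at least 20 counts in every library, the 33 of the list and the members Lef1, Ctnnb1 and Tle3 (bold), ordered by the share in Abl.2. Lef1 and Fzd9 lie near 0 in Abl.2 and near 0.5 in the other lines, while Ctnnb1 lies near 0.5 in all.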

How the data were processed

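RNA-seq libraries of 3 clones, 2 per clone, took their group from the line named in each title. Per the submitters' processing notes, STAR 2.5.4a, SAMtools, GATK and DESeq2 were used and GRCm38 was among the builds named; their parameters are not given in the sources used here. The authors deposited whole-number allelic counts per gene, taken at SNP positions per the file headers, and TPM, for which the file headers name DESeq2. The authors' deposited table of allelic imbalance gives a fraction of maternal counts per line with limits, after replicates were averaged, per the file headers. Libraries were made with a full-length cDNA kit without molecular identifiers, per the labels' protocols, so reads are not independent molecules. Coordinates are those of the authors' tables, and 98.7% of 35412 genes compared had the same start in GENCODE M21 (GRCm38).

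Abundance was tested with limma 3.58.1 (R 4.3.3; eBayes trended) in the 11003 genes averaging 1 TPM or more, after log2(TPM + 1); this scale understates changes of low genes. Allelic counts were tested with edgeR 4.0.16 (quasi-likelihood), with library intercepts and line-specific allele effects, for 8702 autosomal and X genes with at least 20 counts in each library. P-values were adjusted by Benjamini-Hochberg over all genes tested, with a threshold of 0.05. Both fits were tested on simulated data. Alternatives were a pseudocount of 0.1, no filter, quantile normalisation, edgeR on summed allelic counts, coverage minimums of 10 and 50, a null at allele totals, DESeq2 1.42.0 on allelic counts, a replicate block and leaving out each library.

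The members, the list of 103 genes and the rules were chosen with earlier results of these data known. Besides markers, genes described singly were the members, the 2 most abundant list genes per role and the 3 largest called differences per pair. Strongly biased list genes were also described (at most 5 outside chromosomes 4 and 10, by counts, and those on them). So were the neighbours of Lef1 within 1 Mb and the 5 genes most like it in share and in abundance. Fzd9 and genes of the 2 Mb windows were added after seeing the data. Other list genes, such as Apc and Gsk3b, are named only as parts of counts. Promoter sequences are from RefSeq for GRCm38.p6. Same-numbered libraries deviated from their line means with correlations of 0.104, 0.187 and 0.161 in abundance over the 3 pairs of lines and 0.00656, −0.0369 and 0.0291 in allele ratio. A marker of the B lineage list is not reported here.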

Additional observations from a re-analysis of the deposited data

Results flagged for a closer look

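Among the 5 genes, Tle3 was singled out because its allele ratio differed between clones when the difference itself was tested: the log2 ratio of maternal to paternal counts differed by −0.61 for Abl.2 minus Abl.3 (edgeR quasi-likelihood test with Benjamini-Hochberg adjustment). All values below are such differences, in log2 units, between a pair of lines.

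Several list genes that work beside the members differed in the same test. Wnt10a, paternal throughout, gave 1.25 for Abl.2 minus Abl.3, −0.62 for Abl.2 minus Abl.4 and −1.87 for Abl.3 minus Abl.4; the second of these was lost with DESeq2 and without replicate 2 of Abl.2 (−0.49) or replicate 1 of Abl.4 (−0.50). Wls was more maternal in Abl.2, by 4.09 over Abl.3 and 4.40 over Abl.4. Dkk3 was least maternal in Abl.3, with 4.58 for Abl.2 against Abl.3 and −3.62 for Abl.3 against Abl.4. Csnk1a1 was more maternal in Abl.2, by 0.65 over Abl.3 and 0.60 over Abl.4. Jup was more maternal in Abl.4, with −3.16 for Abl.2 and −7.22 for Abl.3 against it. Abl.3 had 0 maternal counts of Jup in both libraries, and Dkk3 had 0 in replicate 2 of Abl.3 and 7 in replicate 1, so the fitted sizes for these genes that involve Abl.3 depend on the prior count and are no measured size. Tnfrsf19 was less maternal in Abl.3, with 1.85 for Abl.2 against Abl.3 and −2.32 for Abl.3 against Abl.4.

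On chromosomes 4 and 10 the median gene had a maternal share of 0.998 and 0.337 in Abl.2. Dvl1 (chromosome 4) differed by 9.40 and 9.48 between Abl.2 and the other lines. Its log2 ratio in Abl.2 was 9.62, so these sizes rest on a very small paternal part. Aes (chromosome 10) gave 1.56 for Abl.2 minus Abl.3 and 3.64 for Abl.2 minus Abl.4, more maternal in Abl.2 where the chromosome's median was less so; the first was lost without replicate 1 of Abl.2 (1.3) or either replicate of Abl.3 (2.16 and 1.21). Tle6 (chromosome 10) gave −3.38 for Abl.2 minus Abl.3 and 2.88 for Abl.3 minus Abl.4.

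Tbl1x, on chromosome X, was paternal in both female lines and maternal in the male line Abl.3. It gave −19.90 for Abl.2 minus Abl.3 and 19.72 for Abl.3 minus Abl.4. The minor allele had few or 0 counts there, so the fitted size depends on the prior count. Amer1, also on chromosome X, gave −19.56 and 19.33. The only X of a male is its mother's, so the shares in Abl.3 were fixed by sex. These differences are therefore not read as differences of Tbl1x in particular.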

How the results depend on the processing

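Lef1 kept its direction under all alternatives run; on summed allelic counts its difference between Abl.2 and Abl.4 was −0.62 and that between Abl.3 and Abl.4 0.39. Ctnnb1 between Abl.2 and Abl.3 was 0.0077 on summed counts and 0.35 to 0.39 with a library left out. Between Abl.2 and Abl.4 it was −0.48 on summed counts and −0.39 to −0.22 with a library left out. Against allele totals, its allele ratio was −0.19 in Abl.2, and the differences of Abl.2 from Abl.3 and Abl.4 reversed to −0.0595 and −0.104. Those totals include chromosome 4, almost wholly maternal in Abl.2, which lowers the ratios of Abl.2 against them, also for Tle3. Tle3 between Abl.2 and Abl.3 was 0.42 without a filter, 0.24 after quantile normalisation, 0.20 on summed counts and 0.28 to 0.57 with a library left out. Between Abl.2 and Abl.4 it was −0.01 to 0.11, negative without replicate 1 of Abl.2 (−0.0021) or replicate 2 of Abl.4 (−0.0116). With the replicate block, Tle3 between Abl.3 and Abl.4 was −0.37 and passed, against −0.11 after quantile normalisation and −0.19 on summed counts, where it did not.

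The allele ratio of Tle3 with a library left out differed by −0.69 to −0.54 between Abl.2 and Abl.3 and by −0.88 to −0.32 between Abl.2 and Abl.4, where coverage of 50 gave −0.60 and allele totals −0.74. Between Abl.3 and Abl.4 it was −0.26 to 0.30, reversed without replicate 2 of Abl.3 (−0.0243) or replicate 1 of Abl.4 (−0.263). Its ratio was −0.12 to 0.02 in Abl.2 (0.0212 without replicate 2), 0.52 to 0.61 in Abl.3 and 0.26 to 0.82 in Abl.4. The list counts that moved most were 20 calls for Abl.2 against Abl.4 on summed counts and 16 to 23 for Abl.3 against Abl.4 with a library left out. The block gave 30, 14 and 31 list calls in abundance; replicate numbers name library preparations, and no other call of a member changed with it. The cause of these changes was not tested. Of the 23 other list genes described singly, 16 lost a call and none reversed. The losses made up 87 combinations of result and setting, 69 of them with a library left out. List genes named only as parts of counts, such as Apc and Gsk3b, are not in this tally. Shares under 100 counts, as for Tcf7, are imprecise.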
